A study of Mus musculus with 2 samples.

Results

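Genes of familial Parkinson's disease were examined in microglia, the macrophages that live in brain tissue. The 8 genes were Lrrk2, Pink1, Vps35, Atp13a2, Fbxo7, Uchl1, Dnajc13 and Synj1, taken by name from a list of disease genes and not by their values, out of 19537 genes in the count matrices. The libraries came from PARK7/DJ-1 knock-out (KO) mice, which carry a gene-trap allele of Park7 on a C57BL/6NCrl background, and from their wildtype (WT) littermates. The mice were 3 to 4 months old, and all of them, controls included, had been injected intraperitoneally 24 h before with 4 μg/g of lipopolysaccharide (LPS), a part of the bacterial wall that inflames the whole body. No untreated library was used here. CD11b+CD45int cells were sorted and captured by Drop-seq, which reads transcripts from their 3' ends on barcoded beads and counts each molecule by its unique molecular identifier (UMI). The groups, labelled KO LPS and WT LPS and called KO and WT microglia here, held 1 library each, and each library pooled 2 mice, so that genotype and library cannot be told apart and no test between them was possible. All intervals are exact 95% intervals and cover counting error only.

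The products of these genes meet on a few organelles. LRRK2 is a kinase that phosphorylates Rab GTPases on vesicles and lysosomes, VPS35 is the core of the retromer that sorts cargo out of endosomes, DNAJC13 is a co-chaperone on the same endosomes, SYNJ1 is a phosphoinositide phosphatase that strips clathrin from vesicles, and ATP13A2 is a lysosomal P5-type ATPase that exports polyamines. PINK1 is a kinase that marks damaged mitochondria for removal, FBXO7 is the substrate adaptor of a ubiquitin ligase that acts in the same process, and UCHL1 is a deubiquitinase known for its abundance in neurons.

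The stretches upstream of the gene starts are shown for the most counted gene (Dnajc13), for the gene with at least 20 UMIs that differed between the libraries beyond counting error (Atp13a2) and for the genes without a UMI in any cell (Lrrk2 and Uchl1). Each covers the 250 bases before the RefSeq start in GRCm38.p6, written 5' to 3' on the gene's strand. They lie at chr9:104262931-104263180 on the minus strand for Dnajc13, chr4:140986671-140986920 on the plus strand for Atp13a2, chr15:91672974-91673223 on the plus strand for Lrrk2 and chr5:66675871-66676120 on the plus strand for Uchl1. Capitals mark GC boxes (GGGCGG, or CCGCCC on the other strand).
Dnajc13: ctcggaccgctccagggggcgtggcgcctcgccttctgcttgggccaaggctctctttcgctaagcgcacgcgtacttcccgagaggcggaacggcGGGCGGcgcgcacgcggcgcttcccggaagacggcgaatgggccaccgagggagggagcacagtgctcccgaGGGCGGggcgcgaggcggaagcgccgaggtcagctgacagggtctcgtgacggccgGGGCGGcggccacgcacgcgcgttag
Atp13a2: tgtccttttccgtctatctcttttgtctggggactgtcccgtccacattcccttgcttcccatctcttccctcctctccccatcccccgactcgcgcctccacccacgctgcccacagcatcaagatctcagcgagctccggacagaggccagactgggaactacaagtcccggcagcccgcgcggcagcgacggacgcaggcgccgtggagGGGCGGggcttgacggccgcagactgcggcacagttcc
Lrrk2: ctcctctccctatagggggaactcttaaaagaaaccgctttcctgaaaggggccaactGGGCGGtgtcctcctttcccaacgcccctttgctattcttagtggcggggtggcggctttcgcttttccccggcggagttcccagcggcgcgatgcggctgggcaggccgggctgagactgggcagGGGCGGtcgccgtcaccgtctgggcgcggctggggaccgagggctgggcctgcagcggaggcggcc
Uchl1: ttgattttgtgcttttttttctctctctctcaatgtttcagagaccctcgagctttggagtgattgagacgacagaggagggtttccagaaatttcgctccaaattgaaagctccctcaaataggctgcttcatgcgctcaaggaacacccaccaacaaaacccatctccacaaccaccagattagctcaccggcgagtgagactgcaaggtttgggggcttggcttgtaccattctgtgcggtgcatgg
Dnajc13 held 3 GC boxes and 39 CpG dinucleotides, Atp13a2 held 1 and 21, Lrrk2 held 2 and 22, and Uchl1 held 0 and 7. Over all 32851 upstream windows, 32.7% held a GC box and the median number of CpG dinucleotides was 6. Neither an E-box (CACGTG, in 6.02% of all windows) nor a TATA box (TATAAA, in 12.4%) was in the windows of the 7 genes that had an entry. Vps35 had none. A match describes these letters alone.

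Cells were barcodes with at least 500 UMIs and at least 100 genes. There were 320 KO cells with 381305 UMIs in all (median 963.5 per cell) and 1427 WT cells with 1989011 UMIs (median 1065). No barcode of a cell was shared between the libraries. All 15 microglial markers, Cx3cr1, P2ry12 and Tmem119 among them, were present in both libraries, but at unequal levels. Their ratios of KO microglia over WT microglia ran from 0.536 (0.503 to 0.571) for C1qa to 9.46 (8.67 to 10.3) for P2ry12. Of the 15, 10 had an interval wholly above 1 and 5 wholly below, beside 19.6% and 18.7% of all genes with at least 20 UMIs. Park7, the targeted gene, had 1 UMI in KO microglia and 323 in WT microglia, a ratio of 0.0162 (0.000408 to 0.0906). The libraries also differed in the inflammatory genes, whose summed level was 708 CPM in KO microglia and 8770 CPM in WT microglia, where CPM is UMIs per 1000000 UMIs of the cells of a library. Markers of the choroid plexus summed to 2164 CPM in KO microglia and 15.6 CPM in WT microglia, and 1 KO cell held 748 of the 825 UMIs behind the former. Those of neutrophils summed to 0 and 68.4 CPM. The part of these differences in the results was not tested.

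Of the 8 genes, 4 gave enough UMIs for a close comparison. Dnajc13, Vps35, Synj1 and Atp13a2 had at least 19 UMIs in KO microglia and at least 183 in WT microglia. Fbxo7 and Pink1 had 44 UMIs or fewer in either library, and Lrrk2 and Uchl1 had none. Atp13a2 was lower in KO microglia beyond counting error, while Dnajc13, Vps35 and Synj1 had ratios with intervals that included 1. Of all genes with at least 20 UMIs, 18.7% likewise had an interval wholly below 1. The interval of Atp13a2 included 1 in cells with the female marker Xist and in cells with at least 1000 UMIs. It stayed below 1 in shallower cells (up to 0.999) and in cells that were not inflammatory. In neither library was the level of Atp13a2 in cells above that in barcodes with very few UMIs beyond counting error.

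**Figure D1:**
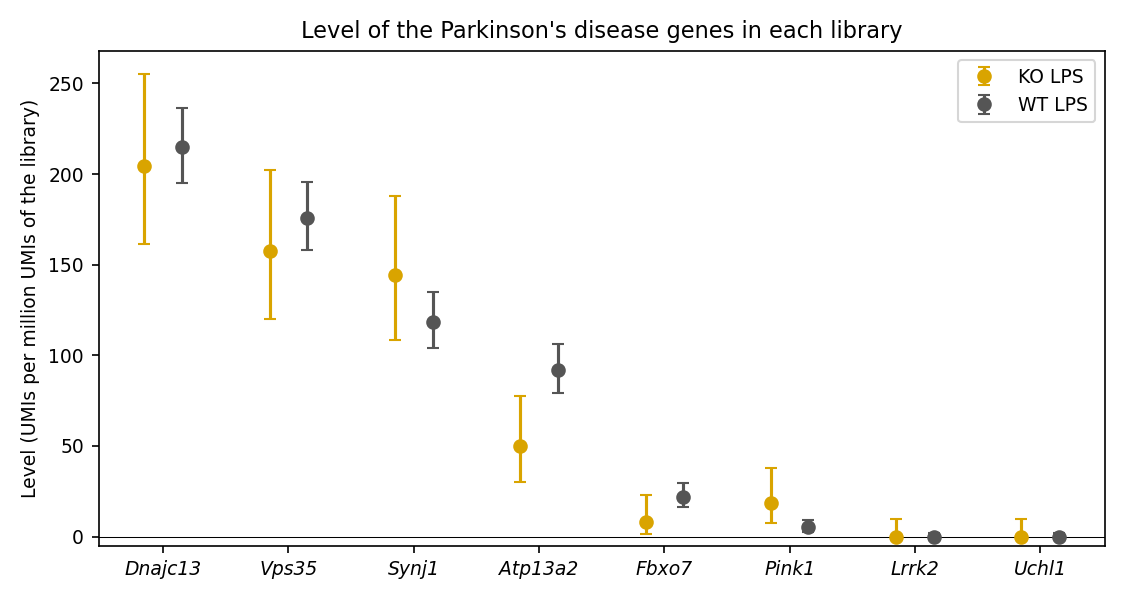
Level of each gene (CPM, y axis) in KO microglia and WT microglia, as points with exact 95% Poisson intervals. Atp13a2 sits at 49.8 in KO microglia and 92.0 in WT microglia, whereas the intervals of Dnajc13, Vps35 and Synj1 overlap between the libraries.

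The endosomal genes were the most counted. Vps35, on the minus strand of chromosome 8 (85986024 to 86026431, GRCm39), had 60 UMIs in KO microglia and 350 in WT microglia, that is 157 CPM (120 to 203) and 176 CPM (158 to 195). The ratio of KO microglia over WT microglia was 0.894 (0.668 to 1.18). Vps35 overlaps Orc6, which had 5 and 69 UMIs, on the opposite strand at the starts of both genes, away from the 3' ends that the method reads. Dnajc13, on the minus strand of chromosome 9 (104028481 to 104140162), had 78 and 428 UMIs, or 205 CPM (162 to 255) and 215 CPM (195 to 237). Its ratio, 0.951 (0.737 to 1.21), was the nearest to 1 among these genes. For both genes the levels of the libraries overlapped within their intervals. Synj1, on the minus strand of chromosome 16 (90732969 to 90808396), had 55 and 236 UMIs, or 144 CPM (109 to 188) and 119 CPM (104 to 135). Among the 5 genes that had at least 20 UMIs, Synj1 alone had a ratio above 1, at 1.22 (0.889 to 1.64), and this interval also included 1. Dnajc13 and Synj1 each overlap 4 genes on the opposite strand. Of these, only 4930404I05Rik, at Synj1, had UMIs, 2 in KO microglia and 4 in WT microglia.

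Atp13a2, on the plus strand of chromosome 4 (140714172 to 140735215, GRCm39), overlaps Gm70354 on the opposite strand and ENSMUSG00000144228 on its own. Neither of these had counts here, and strand use in counting was not stated. Their part in the counts of Atp13a2 was not tested. Atp13a2 had 19 UMIs in KO microglia and 183 in WT microglia. Its level was 49.8 CPM (30.0 to 77.8) in KO microglia and 92.0 CPM (79.2 to 106) in WT microglia, and these intervals did not overlap. The ratio was 0.542 (0.319 to 0.870), or 1.85-fold (1.15 to 3.14) higher in WT microglia. Among all 9085 genes that reached 20 UMIs in the libraries together, 18.7% had a ratio interval wholly below 1 and 19.6% wholly above 1, so that 1 of 5 genes below 1 is near the background. The same ratio in barcodes that were not counted as cells was 0.775 (0.401 to 1.40). In those of them with 1 to 100 UMIs, Atp13a2 had 6 UMIs in the KO library and 18 in the WT library, a ratio of 0.530 (0.172 to 1.39), close to that in cells. Lrrk2, the other lysosomal and vesicle gene, on the plus strand of chromosome 15 (91557083 to 91700604), was not listed in the KO matrix, which was read as 0, and had 0 UMIs in the WT cells. A UMI of it was seen in 0 of 320 cells and in 0 of 1427 cells. Taking 3 counts as the limit that a count of 0 allows, up to 0.938% and 0.210% of cells could hold a UMI, which limits cells with a UMI and not cells that express the gene. On the scale of levels the same 3 counts are 7.87 CPM in KO microglia and 1.51 CPM in WT microglia. Lrrk2 was therefore not detectable at this depth, and 1 UMI of it lay in a WT barcode outside the cells.

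The genes of mitochondrial clearance had few UMIs. Fbxo7, on the plus strand of chromosome 10 (85857690 to 85887737, GRCm39), had 3 UMIs in KO microglia and 44 in WT microglia, or 7.87 CPM (1.62 to 23.0) and 22.1 CPM (16.1 to 29.7). Its ratio was 0.356 (0.0706 to 1.11). Of the 5 genes, only Fbxo7 was past 2-fold lower (1 of 5), against a background of 15.3% of all genes, and 0 of 5 were past 2-fold higher, against 13.5%. Outside the cells Fbxo7 had 7 UMIs in the KO library and 22 in the WT library, a ratio of 1.13 (0.407 to 2.73). Fbxo7 overlaps Syn3 on the opposite strand, which had 1 UMI in KO microglia and 0 in WT microglia. Pink1, on the minus strand of chromosome 4 (138039346 to 138053618), had 7 UMIs in KO microglia and 10 in WT microglia, or 18.4 CPM (7.38 to 37.8) and 5.03 CPM (2.41 to 9.25). The ratio, 3.65 (1.18 to 10.6), rests on 17 UMIs, fewer than the 20 set for a comparison. The gene overlaps Ddost on the opposite strand, which had 40 and 396 UMIs, and strand use in counting was not stated, so that the counts of Pink1 are uncertain. Pink1 had at most 1 UMI in any cell.

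Uchl1, on the plus strand of chromosome 5 (66832748 to 66845009, GRCm39), was not listed for KO microglia and had 0 UMIs in the WT cells, with the same limits of 3 counts as Lrrk2. It had 1 UMI in a WT barcode outside the cells. Neuronal markers, by contrast, had UMIs in the cells of both libraries. The 13 neuronal markers summed to 68.2 CPM in KO microglia, where 6 of them were at 0, and to 76.4 CPM in WT microglia, where 3 were at 0, and Meg3 gave 13 of 26 and 114 of 152 of their UMIs. Snap25, a defining marker of neurons, had 2 UMIs in KO microglia and 4 in WT microglia.

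**Figure D2:**
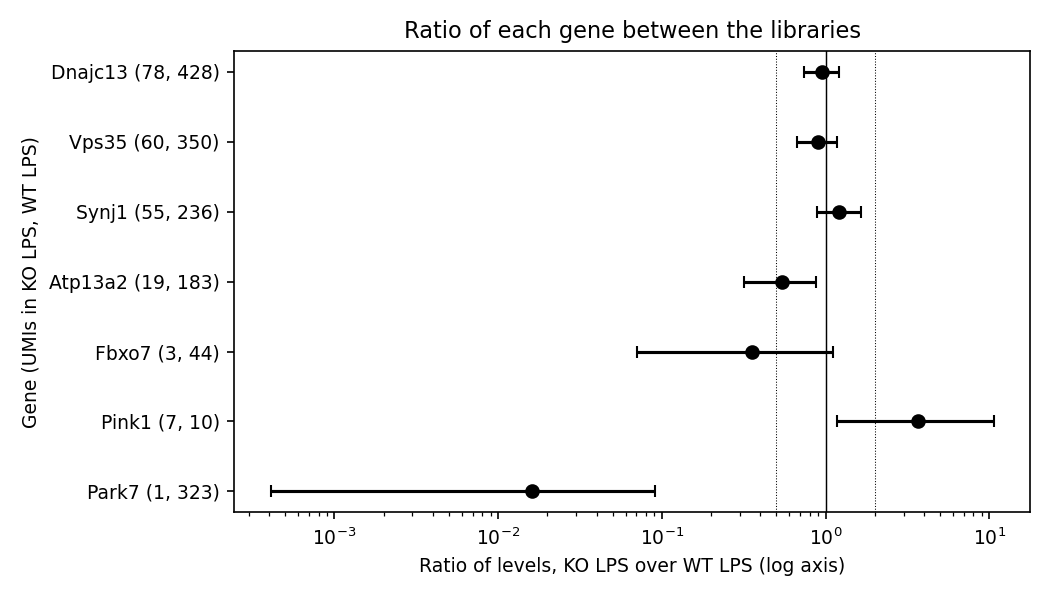
Ratio of levels of KO microglia over WT microglia (x axis, log scale) for each gene with a UMI and for Park7, with exact 95% intervals and the UMIs of both libraries in brackets. The interval of Atp13a2 (0.319 to 0.870) lies below 1, that of Pink1 lies above 1 on 17 UMIs, and the dotted lines mark 2-fold.

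Levels of different genes were compared per length of the longest annotated transcript, although a method that reads 3' ends marks molecules whatever their length. In WT microglia, Vps35 was highest at 35.2 CPM per kilobase (31.6 to 39.1), followed by Dnajc13 at 26.8 (24.3 to 29.5), and these intervals did not overlap. Atp13a2 at 18.8 (16.2 to 21.8) and Synj1 at 16.1 (14.1 to 18.3) CPM per kilobase were neighbours whose intervals overlapped. Fbxo7 at 2.24 and Pink1 at 1.34 CPM per kilobase were lower, and their intervals overlapped. In KO microglia the order began with the same genes, Vps35 at 31.5 (24.0 to 40.5) and Dnajc13 at 25.5 (20.1 to 31.8) CPM per kilobase, but their intervals overlapped. Synj1 came next at 19.6 (14.7 to 25.5) CPM per kilobase and Atp13a2 at 10.2 (6.15 to 15.9), and these intervals overlapped. Pink1 at 4.89 and Fbxo7 at 0.795 CPM per kilobase followed, on 7 UMIs or fewer each. The order depended on the division by length. On undivided CPM, Dnajc13 stood above Vps35 and Synj1 above Atp13a2 in both libraries. The intervals of Dnajc13 and Vps35 overlapped in both, and those of Synj1 and Atp13a2 overlapped in WT microglia but not in KO microglia.

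Each of these genes had a UMI in a minority of the cells. Dnajc13 had a UMI in 59 of 320 KO cells (18.4%, 14.3 to 23.1) and in 314 of 1427 WT cells (22.0%, 19.9 to 24.2). Vps35 had one in 52 (16.25%) and 264 (18.5%) cells, and Synj1 in 41 (12.8%) and 190 (13.3%). Atp13a2 had a UMI in 17 KO cells (5.31%, 3.12 to 8.37) and in 158 WT cells (11.1%, 9.49 to 12.8). Fbxo7 was seen in 3 and 41 cells and Pink1 in 7 and 10. No UMI of any of the 8 genes was found in 57.5% of the KO cells and 49.7% of those of WT microglia.

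At an equal depth of 500 UMIs per cell the shares became smaller. They were set beside the share that 500 UMIs drawn from barcodes with 1 to 100 UMIs would give. The RNA of those barcodes is called RNA outside cells here. Atp13a2 was at 2.07% (0.808 to 4.29) in KO microglia and at 4.84% (3.79 to 6.09) in WT microglia, where RNA outside cells would give 1.5% and 2.81%. Vps35 was at 6.71% and 7.73%, against 5.62% and 5.24%. In WT microglia the levels of these genes in cells were 1.61 times (0.993 to 2.78) that in barcodes with 1 to 100 UMIs for Atp13a2 and 1.63 times (1.15 to 2.40) for Vps35. In KO microglia they were 1.65 times (0.634 to 5.05) and 1.36 times (0.828 to 2.30). Vps35 in WT microglia was thus the only value of these whose interval lay above 1. Dnajc13, at 9.34% and 9.96%, and Synj1, at 5.55% and 5.58%, were not above the shares that RNA outside cells would give, 9.58% and 13.7% for Dnajc13 and 5.86% and 9.35% for Synj1. The level of Dnajc13 in the WT cells was 0.731 times (0.583 to 0.924) that outside, and for Synj1 it was 0.604 times (0.455 to 0.813). In KO microglia the values were 1.02 times (0.686 to 1.53) and 1.19 times (0.727 to 2.02), with intervals that included 1. Dnajc13, Synj1 and Atp13a2 in both libraries and Vps35 in KO microglia were thus not above the level of RNA outside cells beyond counting error. Those barcodes come from the same sorted cells, and the source of their RNA was not tested. A level near theirs therefore does not show that microglia lack the transcript. Fbxo7, at 0.287% and 1.10%, against 1.25% and 0.789%, was in too few cells to be set apart from RNA outside cells. Pink1, at 0.951% and 0.263%, against 1.00% and 0.316%, was also in too few cells to be set apart. Its level in cells was 0.912 times (0.232 to 4.25) that outside in KO microglia and 0.794 times (0.169 to 7.45) in WT microglia.

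**Figure D3:**
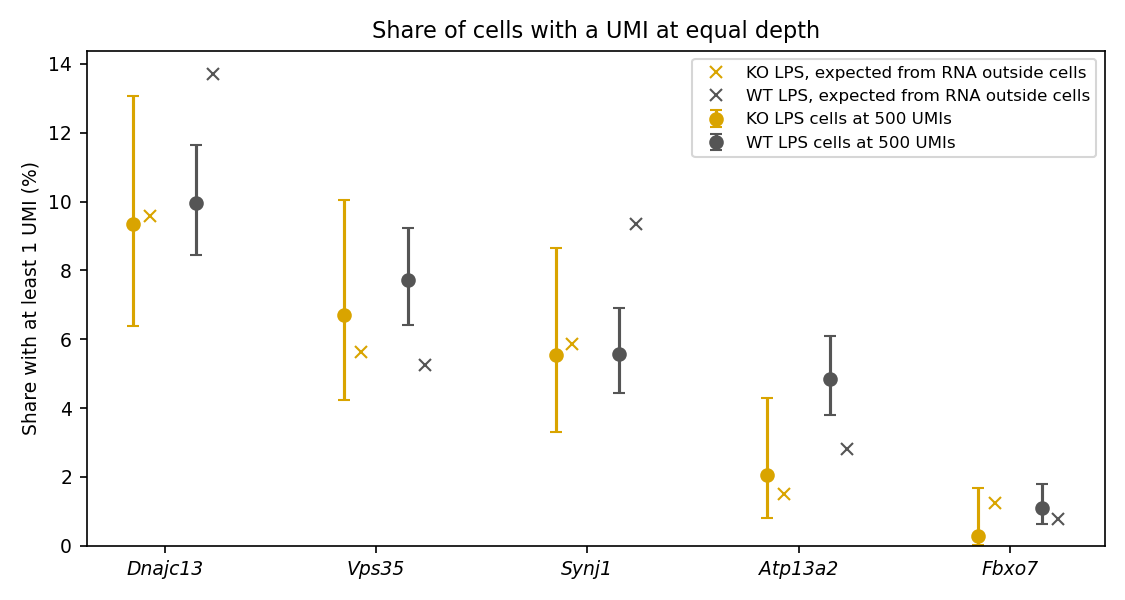
Share of cells with at least 1 UMI of each gene (%, y axis) at 500 UMIs per cell, as points with exact 95% intervals, and the share expected from RNA outside cells as crosses. In WT microglia, Vps35 (7.73%) and Atp13a2 (4.84%) lie above their crosses, and Dnajc13 and Synj1 lie below theirs.

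Within WT microglia none of the genes differed beyond counting error between the cells split by inflammatory genes. Cells with at least 3 UMIs of inflammatory genes at equal depth made up 597 of 1427 (41.8%) in WT microglia and 4 of 320 in KO microglia, and 453 WT cells lay near this limit. In WT microglia, Vps35 was at 196 CPM in the inflammatory cells and 160 CPM in the others, a ratio of 1.23 (0.991 to 1.52). Dnajc13 had a ratio of 0.875 (0.718 to 1.06), Atp13a2 of 0.893 (0.657 to 1.21), Synj1 of 0.952 (0.729 to 1.24) and Fbxo7 of 0.851 (0.439 to 1.61). All 5 intervals included 1, where 6.8% of 8545 genes had an interval wholly below 1 and 5.79% wholly above. In the 453 WT cells near the limit, Atp13a2 was at 118 CPM (93.3 to 147) and Synj1 at 92.3 CPM (70.6 to 119). Over all WT cells they were at 92.0 CPM (79.2 to 106) and 119 CPM (104 to 135). Among the cells that were not inflammatory, Atp13a2 was at 47.8 CPM in KO microglia and 96.7 CPM in WT microglia, a ratio of 0.494 (0.282 to 0.820), as low as over all cells. Vps35 in the same cells had a ratio of 0.982 (0.718 to 1.33).

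Each library pooled 1 female and 1 male mouse, but the makeup of the cells by sex differed. Xist, which marks cells of female mice, was found in 209 of 320 KO cells and 645 of 1427 of WT microglia, and Y-linked UMIs without Xist in 12 and 195 cells. Y-linked UMIs were also present in 9 of the 209 and 80 of the 645 Xist-positive cells, so that this set was not free of Y-linked RNA. In the Xist-positive cells alone the ratio of Atp13a2 was 0.618 (0.315 to 1.12), so that the interval included 1, and Vps35, Dnajc13 and Synj1 had ratios of 0.898, 0.894 and 1.22. Depth moved with Synj1. In KO microglia it was at 180 CPM in cells with at least 1000 UMIs and at 71.3 CPM in shallower ones, a ratio of 2.53 (1.22 to 5.88), while in WT microglia it was at 117 and 125 CPM. The ratio of Synj1 between the libraries was accordingly 1.55 (1.09 to 2.15) in the deeper and 0.569 (0.248 to 1.15) in the shallower cells. Atp13a2 was below 1 in both, at 0.592 (0.307 to 1.05), with an interval that included 1, and at 0.430 (0.151 to 0.999). The part of sex and depth in these results was not tested.

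The meeting of these genes in the same cell was set beside the product of their shares. With each cell thinned once at random to 500 UMIs, Vps35 and Dnajc13 were found in WT microglia together in 11 cells, where the product of their shares gives 11.05. Vps35 and Atp13a2 were together in 10 cells, against 5.37, and Atp13a2 and Dnajc13 in 4, against 6.87. Synj1 was found with Vps35 in 9 cells, against 6.46, with Atp13a2 in 5, against 4.01, and with Dnajc13 in 9, against 8.26. In KO microglia no pair was together in more than 3 cells. These are small counts without intervals, and no pair was tested. The variance of the UMIs per cell over their mean was 1.18 for Dnajc13, 1.12 for Vps35, 1.07 for Synj1 and 1.03 for Atp13a2 in WT microglia, where Poisson sampling gives 1. In KO microglia it was 1.20 for Dnajc13 and 1.19 for Vps35.

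The genes that act with these 8 lay on both sides of equal levels. Of 120 partner genes in the matrices, 99 had at least 20 UMIs, and their median log2 ratio was 0.05, beside 0.03 over all genes and -0.15 over the 5 disease genes. Among the 99, 11 were at least 2-fold lower in KO microglia (11.1%) and 13 at least 2-fold higher (13.1%). Both the 99 and the 11 include Park7, the gene that was knocked out. Over all genes these shares were 15.3% and 13.5%. In the list for LRRK2, which holds Rab substrates, their effectors, the phosphatase Ppm1h, Arfgap1 and the related kinase Lrrk1, 12 of 14 had a log2 ratio above 0, with a median of 0.29, while 48.7% of all genes were below 0. Of these 14, 3 had an interval wholly above 1, beside 19.6% of all genes, and 0 had one wholly below. Rilpl1, an effector of phosphorylated Rab proteins, was 2.69-fold (1.98 to 3.62) higher, and Rab8a, a main substrate, had a ratio of 0.674 (0.416 to 1.04). Among 24 mitophagy genes, 4 were 2-fold lower and 3 higher, from Tomm40, the import channel of the outer mitochondrial membrane, at a ratio of 0.234 (0.0997 to 0.472), to the autophagy receptor Nbr1 at 2.78 (1.98 to 3.87).

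Of 20 retromer and WASH genes, which act with Vps35 and Dnajc13, 1 was 2-fold lower and 3 higher, beside 15.3% and 13.5% of all genes, the background for each list that follows. Snx1, a sorting nexin of the retromer, had a ratio of 0.344 (0.212 to 0.529), and Tbc1d5, a Rab7 regulator bound to it, of 2.03 (1.62 to 2.53). Among 17 genes of endocytosis and clathrin uncoating, 2 were 2-fold lower and 4 higher, with Hspa8, the uncoating chaperone, at 0.487 (0.423 to 0.558) and Pip5k1c, a kinase that makes the lipid SYNJ1 degrades, at 2.72 (1.59 to 4.55). Of the 3 FBXO7 partners none passed 2-fold, and Rbx1 was at 0.500 (0.321 to 0.750) and Cul1 at 1.32 (1.05 to 1.65). Of the 4 relatives of Uchl1 that were compared, 2 had a log2 ratio below 0 and 2 above it, and 1 was 2-fold lower. The 2 below 0 were Uchl5, which acts at the proteasome, and Uchl3. Uchl5 had a ratio of 0.383 (0.227 to 0.610) and Uchl3 of 0.616 (0.318 to 1.10). The value of Uchl3 is uncertain because Uchl4 is a near copy. Of the relatives of Atp13a2, Atp13a1 had a ratio of 0.540 (0.239 to 1.07), whereas Atp13a3 was 2.39-fold (1.63 to 3.45) higher. Among 17 other Parkinson genes, 3 were 2-fold lower, Park7 included, and 1 higher. Scarb2, a lysosomal membrane protein, was at 1.29 (0.837 to 1.94).

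**Figure D4:**
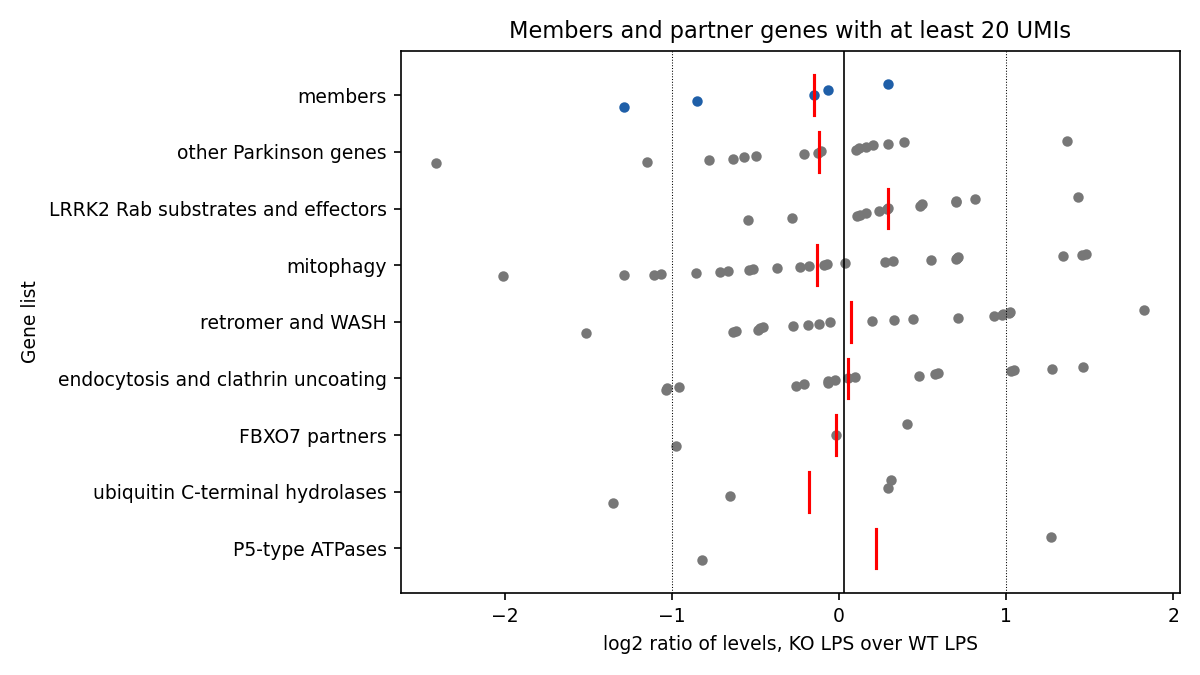
Log2 ratio of KO microglia over WT microglia (x axis) of the 5 disease genes (blue) and of partner genes (grey) with at least 20 UMIs, by list (y axis), with Park7 (-5.37) left out of the plot and of the median of its list. Red bars mark list medians, the solid line the median of all genes (0.03) and the dotted lines 2-fold, and most lists spread to both sides of it.

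The genes nearest in level to each gene with at least 100 UMIs, by the larger absolute difference in log2 CPM over the 2 libraries, were within 0.05. They were Srsf3 and Tcn2 for Vps35, Hmgn2 and Cd3eap for Atp13a2, Mat2a and Tpst2 for Dnajc13, and Akr1b10 and Med1 for Synj1.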

How the data were processed

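For each library, the deposited file held raw counts (UMIs per gene and barcode) before any filter on cells. The submitters' processing notes name bcl2fastq 2.0, STAR, mm9 and mm10 without roles, and strand use was not given in the sources used here. Genes missing from a matrix were read as 0. No column belonged to another sample (0). Cells were barcodes with at least 500 UMIs and 100 genes, and doublets were left in. UMIs were summed over cells per library with pandas 2.3.3, numpy 2.4.6 and scipy 1.17.1 under Python 3.11.15, and plots were drawn with matplotlib 3.10.9. Levels carry exact Poisson, ratios exact conditional binomial and shares exact Clopper-Pearson intervals (95%). Log2 ratios used a prior count of 0.5 and genes that reached 20 UMIs in the sum of the libraries. Shares at 500 UMIs are averages over all ways of thinning each cell. The test over cells that the study used was omitted, since cells are no replicates. The 8 genes and all lists were chosen with earlier results of these data known. A listed gene is not reported here. Named were the 8 genes, Park7, the highest and lowest gene of each partner list with at least 50 UMIs, and the 2 genes nearest in level to each gene with at least 100 UMIs. Other genes were named as markers or because they overlap a member. Coordinates are GRCm39 (GENCODE vM39), and upstream sequences are from RefSeq (GRCm38.p6). The calculations were tested on simulated data. Alternatives changed the cell minimum, scaling, thinning, background, sex of cells and folds.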

Additional observations from a re-analysis of the deposited data

Results flagged for a closer look

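In the barcodes that were not counted as cells, which lie outside the comparison of cells, Pink1 had 5 UMIs in the KO library and 3 in the WT library, a ratio of 5.90 (1.15 to 38.0). It was singled out because the interval of this ratio lies above 1 in data outside the main measurement, and it rests on 8 UMIs. In all barcodes that were not counted as cells, Synj1 had 31 and 210 UMIs, a ratio of 0.523 (0.346 to 0.765). Dnajc13 had 63 and 317 UMIs there, a ratio of 0.704 (0.528 to 0.925), and both were below 1. In cells the ratio of Synj1 was 1.22 (0.889 to 1.64).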

How the results depend on the processing

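With 1 library per genotype, no result has a replicate check. No paired analysis was possible because each group held 1 library. Of 135 values under alternative settings, 117 stayed within counting error or within 1.5 times a count. Among Y-positive, Xist-negative cells, of which KO microglia had 12, the log2 ratio was 0.11 for Atp13a2, which reversed its sign, -0.95 for Vps35, -1.24 for Dnajc13 and -0.19 for Synj1. There Atp13a2 had 1 UMI in KO microglia and a ratio of 0.734 without the prior count, so the reversal comes from the prior count. Without the 3 cells with most UMIs of the gene, Fbxo7 was at -3.88, since these held all of its UMIs in KO microglia. The count of disease genes at least 2-fold lower in KO microglia, 1 as reported, was 0 in cells with at least 1000 UMIs, in Xist-positive cells and with at least 50 UMIs over both libraries. It was 2 with the mean CPM of single cells, with every cell thinned to 500 UMIs and at 1.5-fold, which 25.8% of all genes passed. With no minimum of UMIs, 1 was at least 2-fold higher, against 0. At 1.5-fold, 22 of 99 partner genes were lower and 24 higher, beside 25.8% and 26.2% of all genes. The difference in share of cells (KO microglia minus WT microglia, percentage points) was -2.77 for Atp13a2 and -5.76 unthinned, and -0.81 for Fbxo7 and -1.94 unthinned. For Synj1 it was -0.03, but 4.43 in cells thinned to 1000 UMIs and 2.76 in cells with at least 1000 UMIs thinned to 500. The cause was not tested. Leaving out cells with at least 10 UMIs of a list of another cell type (3 KO and 2 WT cells), a setting chosen after seeing the data, gave -0.91 for Atp13a2 and -1.27 for Fbxo7.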
